A study of Mus musculus with 16 samples.

Results

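Ubiquitous intragenic regions are stretches of open chromatin inside protein-coding genes, away from both ends of every protein-coding gene. They were called in each of 16 ATAC-seq libraries of mouse bone marrow cells. ATAC-seq uses the Tn5 transposase to cut and tag accessible DNA. The peaks of all libraries on the main chromosomes were merged where they overlapped or touched, which gave 102496 regions. Of these, 24955 were called in 16 of 16 libraries. A total of 8207 of those overlapped a RefSeq protein-coding gene body and lay more than 1 kb from every end of a protein-coding gene, 32.9% of the ubiquitous regions and 8.01% of all merged regions. Of the 8207, 7713 also lay more than 1 kb from the ends of every other gene in the RefSeq table. The other ubiquitous regions were 9939 within 1 kb of a gene end and 6809 in intergenic DNA. The regions were chosen by their peak calls, which rest on the measured reads in all 16 libraries, so their peak strength is given as a description, with no test.

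The cells came from male C57Bl/6 mice, made diabetic with streptozotocin (STZ, which destroys the insulin-producing cells of the pancreas) or kept as non-diabetic controls without treatment. The marrow was depleted of lineage-positive cells (CD3, CD4, Gr1, Ter119 and B220), and the submitters call the remaining cells haematopoietic stem cells. Each of 4 diabetic and 4 control mouse samples was divided into a portion kept 6 h in culture, with interleukin-1β (IL-1β) at 10 ng/mL, and a baseline portion lysed at once, which gave diabetic IL-1β, diabetic baseline, control IL-1β and control baseline groups of 4 libraries each. IL-1β and culture always came together and cannot be told apart, and diabetes cannot be told apart from streptozotocin itself. The labels do not give the animals' age or say whether a mouse sample was 1 animal, so p-values measure the spread between these samples.

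DNA inside a gene is opened mainly where transcription factors displace nucleosomes, at enhancers in introns and at alternative promoters. An enhancer may act on the gene that holds it or on another gene, and accessibility alone does not say which. IL-1β binds the receptor Il1r1 and its partner Il1rap, which recruit the adaptor Myd88 and Irak kinases and activate NF-kB and, through MAP kinases, AP-1. In bone marrow progenitors IL-1 is known for driving myeloid differentiation.

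Of the 8207 regions, 950 overlapped a start window of the host gene, the 250 bases upstream of a RefSeq transcription start. The start itself need not lie in the region. These are internal starts because the gene's annotated ends lie further out. The start windows are the only sequence of these regions used here. They are shown for the regions with the 4 largest IL-1β rises (Smim14, Parvg, Lair1 and Creb5) and the largest fall (Zscan18) among those whose summit lay in the start window and that passed the IL-1β test described below. They run 5′ to 3′ on the gene's strand, from RefSeq's tables for GRCm38.p6. On the main chromosomes its coordinates equal those of mm10, the build of the peaks. Capitals mark AP-1 motifs, spelled TGACTCA or TGAGTCA. The Smim14 stretch (chr5:65484062-65484311, minus strand) and the Creb5 stretch (chr6:53573124-53573373, plus strand) each hold 1, while those of Parvg (chr15:84325869-84326118, plus strand), Lair1 (chr7:4063205-4063454, minus strand) and Zscan18 (chr7:12780673-12780922, minus strand) hold none.
Smim14: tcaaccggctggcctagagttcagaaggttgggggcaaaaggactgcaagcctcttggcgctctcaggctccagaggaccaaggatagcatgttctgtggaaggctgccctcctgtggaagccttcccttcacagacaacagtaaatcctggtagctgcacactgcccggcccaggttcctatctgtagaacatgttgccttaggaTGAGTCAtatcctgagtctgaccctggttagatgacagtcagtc
Parvg: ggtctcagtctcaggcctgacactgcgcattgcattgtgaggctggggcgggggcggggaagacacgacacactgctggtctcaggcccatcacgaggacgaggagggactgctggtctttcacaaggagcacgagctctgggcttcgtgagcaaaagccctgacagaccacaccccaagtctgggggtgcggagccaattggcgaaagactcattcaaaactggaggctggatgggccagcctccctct
Lair1: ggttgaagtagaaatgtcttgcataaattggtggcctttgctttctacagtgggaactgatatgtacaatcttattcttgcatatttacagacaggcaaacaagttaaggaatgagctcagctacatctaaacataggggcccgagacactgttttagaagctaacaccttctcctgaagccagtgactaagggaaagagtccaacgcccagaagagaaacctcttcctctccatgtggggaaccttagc
Creb5: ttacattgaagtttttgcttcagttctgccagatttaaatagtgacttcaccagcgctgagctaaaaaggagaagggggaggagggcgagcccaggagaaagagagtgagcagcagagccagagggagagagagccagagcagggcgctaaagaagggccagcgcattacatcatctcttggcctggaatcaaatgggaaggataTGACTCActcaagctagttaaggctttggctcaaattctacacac
Zscan18: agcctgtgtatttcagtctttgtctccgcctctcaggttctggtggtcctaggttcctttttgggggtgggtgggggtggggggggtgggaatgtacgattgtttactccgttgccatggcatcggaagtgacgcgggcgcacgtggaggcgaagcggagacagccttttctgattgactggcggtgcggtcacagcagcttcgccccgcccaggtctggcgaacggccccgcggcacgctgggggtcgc
These regions changed after IL-1β, over both phenotypes, by 0.95 (Smim14, a small membrane protein), 0.92 (Parvg, a leukocyte parvin that links integrins to actin), 0.83 (Lair1, an inhibitory collagen receptor of leukocytes), 0.76 (Creb5, a bZIP factor that binds cAMP response elements) and -0.74 (Zscan18, a zinc finger protein) on the log2 scale. Among 66 internal start windows at regions that rose, 9 held the AP-1 letters on either strand (13.6%), and of 21 windows at regions that fell none did. The letters stood in 41 of 1107 windows over all these regions (3.70%) and in 1466 of 32851 RefSeq start windows of the same length (4.46%). The GATA letters AGATAA stood in 1 of 66, 0 of 21, 61 of 1107 (5.51%) and 3281 of 32851 windows (9.99%), in the same order. Of the other motifs searched, ETS letters stood in 4 of 66 (6.06%), 0 of 21 and 45 of 1107 windows (4.07%). NF-kB letters stood in 1 of 66, 0 of 21 and 8 of 1107 (0.723%). C/EBP letters stood in 0 of 66, 0 of 21 and 11 of 1107, and RUNX letters in 0 of 66, 0 of 21 and 5 of 1107. The 66 windows lay at 55 risen regions and the 1107 at 950 regions, so some windows shared a region. These shares were not tested. A match is a description of letters in the window.

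Across the libraries, the number of peaks ran between 37543 (control IL-1β replicate 2) and 72525 (control baseline replicate 3), and the background between 0.856 and 1.71 reads per window. Depth is known only through this background and the reads at summits, whose median over the intragenic regions was 20 to 47 per library. Diabetic baseline replicate 4 stood apart, with the lowest background and the fewest summit reads. Its summed reads at mature neutrophil marker genes were 928, against 1276 to 1646 in the other diabetic baseline libraries, and at erythroid marker genes 1419, against 560 to 1019. A region open in all 16 libraries lay in or within 1 kb of 11 of 20 stem cell marker genes, among them Kit, Cd34, Mecom, Meis1 and Hlf but not Slamf1, Procr or Ly6a. The same held for 12 of 16 granulocyte-monocyte progenitor marker genes (not Mpo or Elane), 17 of 18 mature neutrophil ones, 12 of 15 monocyte, 13 of 18 erythroid, 8 of 15 megakaryocyte, 5 of 13 mast cell, 5 of 15 B cell, 9 of 20 T and NK cell, 11 of 16 dendritic cell and 7 of 18 stroma and endothelium ones. The share of all protein-coding genes with such a region was not worked out. All 24 cytosolic ribosomal protein genes and all 45 listed adhesion genes had one, so these counts do not tell which cell types were present. Ubiquitous regions thus lay at marker genes of several cell types, and stem cell is kept here only as the submitters' name. In such bulk samples a smaller share of a cell type and less open chromatin per cell cannot be told apart.

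Strength is the highest deposited fold over background of a region in a library. Its median over a region's 16 libraries was 8.08 for the typical region (interquartile range 6.48 to 10.2), with 2.43 and 23.2 as lowest and highest. The typical region spanned 578 bp (452 to 775 bp), lay 14041 bp from the nearest gene end and had 31.5 reads at its highest summit. A single summit in every library was found in 4529 regions, and 868 averaged at least 2 summits. At the rule's edges, regions 1001 bp from a gene end in Khnyn and Msantd2 were inside and regions 998 bp from one in Arhgef25 and 1000 bp in Rap2c outside. The 719 regions between 1 and 2 kb from an end had a median strength of 7.44, and the 500 regions inside gene bodies between 0.5 and 1 kb from one, counted as gene-end, 7.78. Intragenic regions called in 15 libraries (2891) had a median strength of 6.07.

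Library medians of strength were 7.33, 8.32, 7.07 and 7.14 in diabetic IL-1β replicates 1 to 4, against 7.79, 8.50, 8.99 and 7.50 in diabetic baseline replicates 1 to 4. They were 9.06, 6.50, 7.60 and 8.28 in control IL-1β replicates 1 to 4, against 9.44, 9.24, 8.82 and 8.16 in control baseline replicates 1 to 4. Within mouse samples the median was lower after IL-1β than at baseline in 4 of 4 diabetic and in 3 of 4 control samples, with control sample 4 the exception, and no test is given because strength chose the regions. The ranges of IL-1β and baseline libraries overlapped in both phenotypes, and control IL-1β replicate 2, the library with the fewest peaks, was lowest. Gene-end regions had library medians of 9.73 to 11.8 and intergenic regions 6.53 to 9.68.

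**Figure D1:**
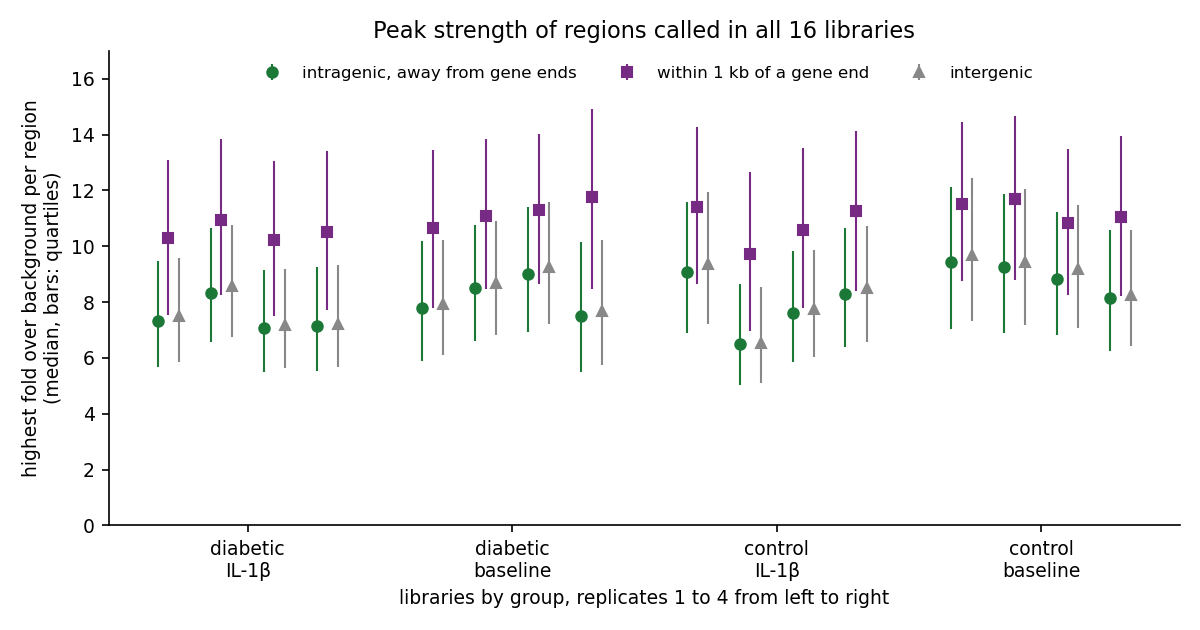
Median strength (highest fold over background per region, bars for quartiles) of intragenic, gene-end and intergenic regions called in all 16 libraries, by library and group. The intragenic medians sit between 6.50 and 9.44 and the gene-end medians between 9.73 and 11.8.

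The strongest regions lay in Mrps27 (chr13:99353009-99353652, median fold 23.2), a mitochondrial ribosome subunit, in Snapc3 (chr4:83417380-83418143, 21.2), a subunit of the small nuclear RNA activating complex, in Ctif (20.7), a translation factor of newly made mRNA, in Uggt2 (chr14:119007187-119007892, 20.3), an endoplasmic reticulum glucosyltransferase, and in Pik3c3 (20.2), the class III phosphoinositide kinase of autophagy. The Mrps27 region had 102, 112, 117 and 111 scaled reads in diabetic IL-1β replicates 1 to 4, against 98.6, 116, 104 and 141 in diabetic baseline replicates. It had 94.9, 100.2, 97.5 and 101 in control IL-1β replicates, against 95, 99.4, 90.02 and 103 in control baseline replicates. Scaled reads are the reads at the highest summit, recovered from the deposited fold and p-value and brought to the same median over the 24955 regions in each library. IL-1β and baseline libraries overlapped at Mrps27 in both phenotypes, and none of these regions passed the IL-1β test in either phenotype.

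Regions that overlapped an internal start window of their gene were stronger, with a median fold of 9.68. It was 7.92 in the 7156 regions that overlapped no RefSeq start window. The regions with such a window were also wider, with a median of 884 bp against 552 bp. Among 6540 regions in genes whose strand RefSeq's start table gave, dividing each gene into 4 equal parts put 1961 in the part nearest its start, 1828 and 1486 in the following parts and 1265 in the part nearest its end. Median strength in these parts was 7.93, 8.13, 8.10 and 8.40. Hairpins of 10 annotated miRNAs lay in a region. Exon and intron positions were not used here.

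Open intragenic regions were spread over 4460 genes, 20.4% of the 21883 protein-coding genes of the RefSeq table, and 2734 of them held 1. At least 5 stood in 299 genes, which together held 1991 regions (24.3%), and at least 10 in 30 genes. Genes with many regions were long, with a median of 174 kb for those with at least 5, against 34.1 kb for those with 1 and 17.2 kb for all protein-coding genes. Pde4d, a cAMP phosphodiesterase, held the most, 18 over 1302 kb, and Foxp1, a forkhead transcription factor of lymphoid and myeloid cells, held 15 over 597 kb. Next came Arhgap26 (14), a RhoA GTPase activator, and Sgms1 (13), which makes sphingomyelin. Zmiz1, a co-activator of the PIAS family, Vps13d, a lipid transfer protein, Iqsec1, an Arf exchange factor, Gse1 and Itpr2, a calcium channel of the endoplasmic reticulum, held 12 each. Ccdc88c, Ptk2b, Ptpre, Tex14, App and Runx1 held 11 each. Per 100 kb, Ccdc88c (9.34), which acts in Wnt signalling, and Ptk2b (8.60), a focal adhesion kinase, were the densest of these 15 genes and Pde4d (1.38) the sparsest. Runx1, a transcription factor that blood stem cells need, had regions with median strengths of 4.00 to 11.8.

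**Figure D2:**
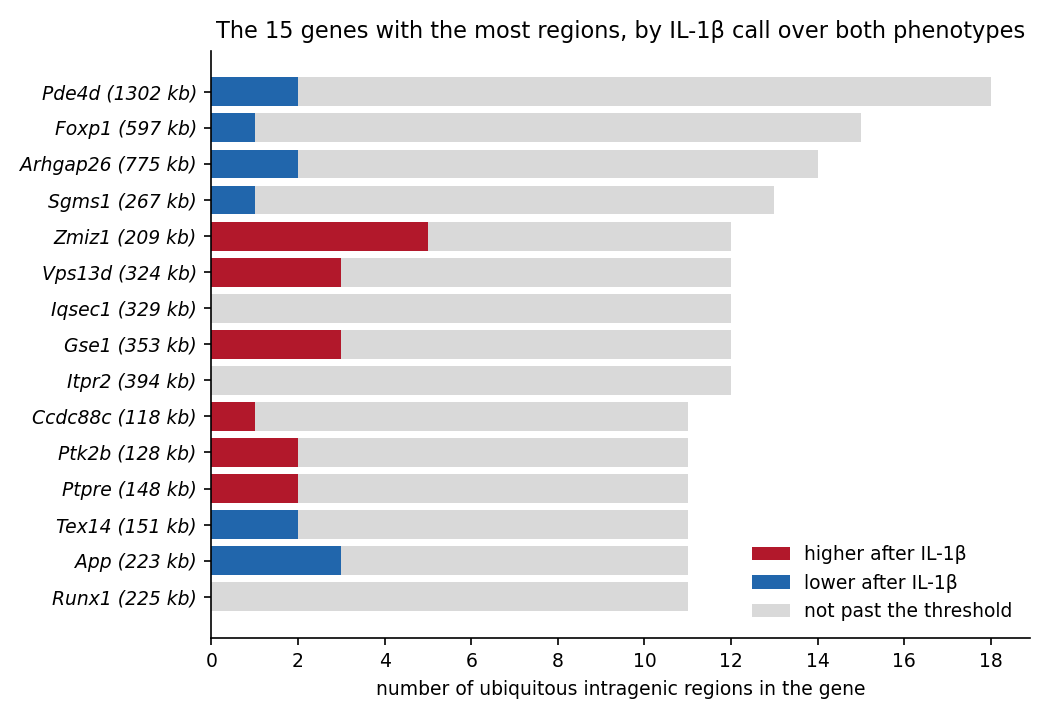
Number of ubiquitous intragenic regions in the 15 genes that held the most, with gene length in kb, split by the IL-1β call over both phenotypes. Pde4d has 18 regions, of which 2 are lower after IL-1β, and Zmiz1 has 12, of which 5 are higher.

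In diabetic mice, 270 of the 8207 intragenic regions were higher after IL-1β (3.29%) and 79 lower (0.963%), in limma's moderated test on log2 scaled reads with Benjamini-Hochberg adjustment over 24955 regions at 0.05. Over all 24955 regions 2.19% were higher and 0.641% lower, 2.83% in either direction. The region in Fmnl2 (chr2:52938251-52938687), a formin that elongates actin filaments, had 38.2, 32.7, 25.8 and 36.7 scaled reads in diabetic IL-1β replicates 1 to 4, against 12.1, 7.48, 9.61 and 24.7 in diabetic baseline replicates. All IL-1β libraries stood above all baseline libraries, with baseline replicate 4 the nearest, and the log2 change was 1.45 (SE 0.28, adjusted p = 0.0053). Msmo1, a sterol oxidase of cholesterol synthesis, held a region (chr8:64726081-64726807) with 39.3, 34.6, 45.4 and 53.2 in diabetic IL-1β replicates, against 19.1, 15.9, 17.6 and 14.5 in diabetic baseline replicates. These groups did not overlap either, with a change of 1.35 (SE 0.23, adjusted p = 0.002). Pou2f2, the octamer factor of B and myeloid cells, held one (chr7:25119954-25120861) with 53, 54.2, 44.2 and 64.6 against 19.1, 24.3, 20.03 and 21.8, in the same order of groups. Its lowest IL-1β library stood well above its highest baseline library, and the change was 1.33 (SE 0.19, adjusted p = 0.00051).

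Further down the list of rises in diabetic mice came Tnfrsf22, a decoy receptor for the death ligand TRAIL in the mouse (chr7:143636622-143637180), with a change of 1.33 (SE 0.21, adjusted p = 0.00096). Myo16, an unconventional myosin, followed with 1.31 (adjusted p = 0.0174), Pkd1l2, of the polycystin family, with 1.30 (adjusted p = 0.00072), Mcph1, of chromosome condensation and DNA repair, with 1.30 (adjusted p = 0.00072), and Tram2, of the endoplasmic reticulum, with 1.30 (adjusted p = 0.0414). In each of them 4 of 4 diabetic mouse samples were higher after IL-1β than at baseline. Here and below, the named IL-1β regions were picked because they passed the threshold, most of them for large changes or low p. Groups that stand apart and samples that agree in direction are favoured by that choice. Tram2 was the least certain, since its adjusted p exceeded 0.05 under 11 of the alternatives, among them leaving out any 1 of the diabetic IL-1β libraries. Myo16 missed the threshold without diabetic IL-1β replicate 3 or diabetic baseline replicate 2, and when reads of all summits were summed. Under background scaling Msmo1, Tnfrsf22, Myo16, Mcph1 and Tram2 missed it in diabetic mice.

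The largest fall in diabetic mice was in Ssbp2 (chr13:91509456-91509904), a single-stranded DNA binding partner of Ldb1 in transcription complexes. Its scaled reads were 17, 11.2, 14.7 and 13.9 in diabetic IL-1β replicates 1 to 4, against 34.2, 31.8, 32.9 and 43.6 in diabetic baseline replicates. The highest IL-1β library stood below the lowest baseline library, and the log2 change was -1.33 (SE 0.22, adjusted p = 0.0017) in limma. Zfp831, a zinc finger protein (chr2:174602071-174602737), had 18, 33.6, 9.81 and 16.5 in diabetic IL-1β replicates, against 42.3, 43, 39.3 and 50.9 in diabetic baseline replicates. Replicate 2 after IL-1β stood apart from its group but still below all baseline libraries, and the change was -1.30 (SE 0.25, adjusted p = 0.0047). Vrk1, a nuclear kinase of chromatin and cell division (chr12:106034293-106034707), had 25.5, 21.5, 22.1 and 20.3 against 59.4, 55.1, 58.5 and 39.3, in the same order, with groups apart and a change of -1.24 (SE 0.16, adjusted p = 0.0002). Ppp1r12b, a myosin phosphatase subunit, Fry, a spindle and polarity protein, Pde4b, a cAMP phosphodiesterase, Ripor2, an inhibitor of RhoA, and Mbd2, a reader of methylated CpG, completed the 8 largest falls. Their changes were -1.23, -1.06, -1.04, -1.02 and -0.99. Ripor2 was lower in 3 of 4 diabetic mouse samples: in sample 4 it had 29.1 scaled reads after IL-1β and 27.6 at baseline. Fitted with the diabetic libraries alone, Zfp831, Ripor2 and Mbd2 missed the threshold.

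Counts of calls in diabetic mice moved with the libraries used. With the mouse sample as a block, 509 regions were higher and 155 lower. Leaving out diabetic IL-1β replicate 1, 2, 3 or 4 gave 142, 170, 137 or 151 rises, and leaving out diabetic baseline replicate 1 or 3 gave 407 or 175. Falls numbered 43, 44 and 32 without diabetic IL-1β replicate 2, 3 and 4, 46 without diabetic baseline replicate 2 or 3, and 155 without diabetic baseline replicate 4. With libraries scaled by background instead of equal medians, which moved the median change of all 24955 regions over both phenotypes to -0.24, against 0.03 with equal medians, 6 regions were higher and 43 lower, so rises and falls are relative to the typical ubiquitous region. The share of calls that were rises was 77.4% with equal medians and 12.2% with background scaling. Over both portions of the diabetic samples, the summed reads at stem cell marker genes were 727 to 746 in IL-1β libraries and 761 to 890 in baseline libraries, and at granulocyte-monocyte progenitor marker genes 689 to 777 and 570 to 686. The part of such cell types in the changes was not tested.

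In control mice, 199 intragenic regions were higher after IL-1β (2.42%) and 113 lower (1.38%), while over all 24955 regions 1.78% were higher and 0.970% lower, 2.75% in either direction. Msmo1 led the rises. Its region had 52.3, 43.3, 41.6 and 48.5 scaled reads in control IL-1β replicates 1 to 4, against 22.8, 8.35, 13.5 and 16.7 in control baseline replicates. The groups stood far apart, and the log2 change was 1.68 (SE 0.23, adjusted p = 0.00027) in limma. Tram2 (chr1:21014458-21014929) had 40.1, 27.1, 20.2 and 31 in control IL-1β replicates, against 27.5, 7.52, 8.12 and 6.87 in control baseline replicates. Baseline replicate 1 stood far above the other baseline libraries and above IL-1β replicates 2 and 3, so the groups overlapped, and the change was 1.47 (SE 0.35, adjusted p = 0.0208). Gch1, which starts the synthesis of tetrahydrobiopterin, the cofactor of nitric oxide synthase (chr14:47177811-47178295), had 40.1, 33.8, 29.7 and 26.9 in control IL-1β replicates, against 22.8, 9.19, 11.5 and 7.85 in control baseline replicates. Its IL-1β libraries all stood above baseline, with baseline replicate 1 again the highest of its group, and the change was 1.46 (SE 0.26, adjusted p = 0.002).

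The metal transporter of phagosomes Slc11a1 (chr1:74381441-74382029) had 41.7, 36.5, 42.8 and 38.2 scaled reads in control IL-1β replicates, against 22.8, 14.2, 12.2 and 11.8 in control baseline replicates, with groups apart and a change of 1.44 (SE 0.21, adjusted p = 0.00045) in limma. Prex1, an exchange factor that activates Rac in neutrophils (chr2:166665404-166666025), had 28.6, 17.6, 38.1 and 36.2 in control IL-1β replicates, against 14.9, 10.9, 10.8 and 9.81 in control baseline replicates, and a change of 1.33 (SE 0.22, adjusted p = 0.0013). Mefv, which encodes the inflammasome sensor pyrin (chr16:3714682-3715182), had 39.3, 40.6, 36.9 and 35.1 in control IL-1β replicates, against 21.2, 12.5, 12.9 and 15.7 in control baseline replicates, and a change of 1.32 (SE 0.19, adjusted p = 0.00036). IL-1β libraries stood above all baseline libraries in both, and in Prex1 replicate 2 was the lowest IL-1β library. Capg, which caps actin filaments in macrophages, and a region shared by Tmbim1, a stress protein of membranes, and Pnkd completed the 8 largest rises, with 1.35 and 1.31. Prex1 and Mefv missed the threshold under background scaling, and Tram2 without control IL-1β replicate 1 or 4 or without control baseline replicate 2, 3 or 4. Summing all summits ended the calls of Tram2, Capg and Tmbim1 in control mice.

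The largest falls in control mice were again in Ssbp2 and Ppp1r12b. The Ssbp2 region had 6.54, 10.8, 11.9 and 11.4 scaled reads in control IL-1β replicates 1 to 4, against 22, 34.2, 35.2 and 31.4 in control baseline replicates, with a change of -1.61 (SE 0.22, adjusted p = 0.00027) in limma. The Ppp1r12b region (chr1:134771940-134772435) had 13.9, 13.5, 15.5 and 13.4 in control IL-1β replicates, against 30.6, 36.8, 42 and 34.4 in control baseline replicates, with a change of -1.34 (SE 0.20, adjusted p = 0.00057). In both genes the IL-1β libraries lay close together and below every baseline library. Fam98b, of the tRNA ligase complex (chr2:117262146-117262636), had 11.4, 16.2, 13.1 and 12.4 in control IL-1β replicates, against 36.1, 20.1, 32.5 and 38.3 in control baseline replicates, groups that did not overlap, and a change of -1.22 (SE 0.21, adjusted p = 0.0018). Zfp831 (-1.19), Metap1d, a mitochondrial methionine aminopeptidase (-1.18), Ripor2 (-1.16), Antxr2, a receptor for collagens and anthrax toxin (-1.15), and Capn13, a calpain (-1.09), followed, and each was lower in 4 of 4 control mouse samples. Picking the largest falls favours such agreement. Zfp831 missed the threshold when reads of all summits were summed.

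With the mouse sample as a block, 400 regions were higher and 203 lower in control mice. Leaving out control IL-1β replicate 3 or 4 gave 109 or 118 rises, leaving out control baseline replicate 2, 3 or 4 gave 98, 126 or 114, and leaving out diabetic baseline replicate 4, which shares the estimate of the spread, gave 447. Falls numbered 66, 72 and 53 without control IL-1β replicate 2, 3 and 4, 67, 47, 42 and 48 without control baseline replicate 1, 2, 3 and 4, and 236 without diabetic baseline replicate 4. Background scaling gave 8 rises and 79 falls, a share of rises of 9.20% instead of 63.8%. Summed reads at granulocyte-monocyte progenitor marker genes were 710 to 776 in control IL-1β libraries and 670 to 685 in control baseline libraries, and at stem cell marker genes 704 to 744 and 731 to 756. Their part in the changes was not tested.

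**Figure D3:**
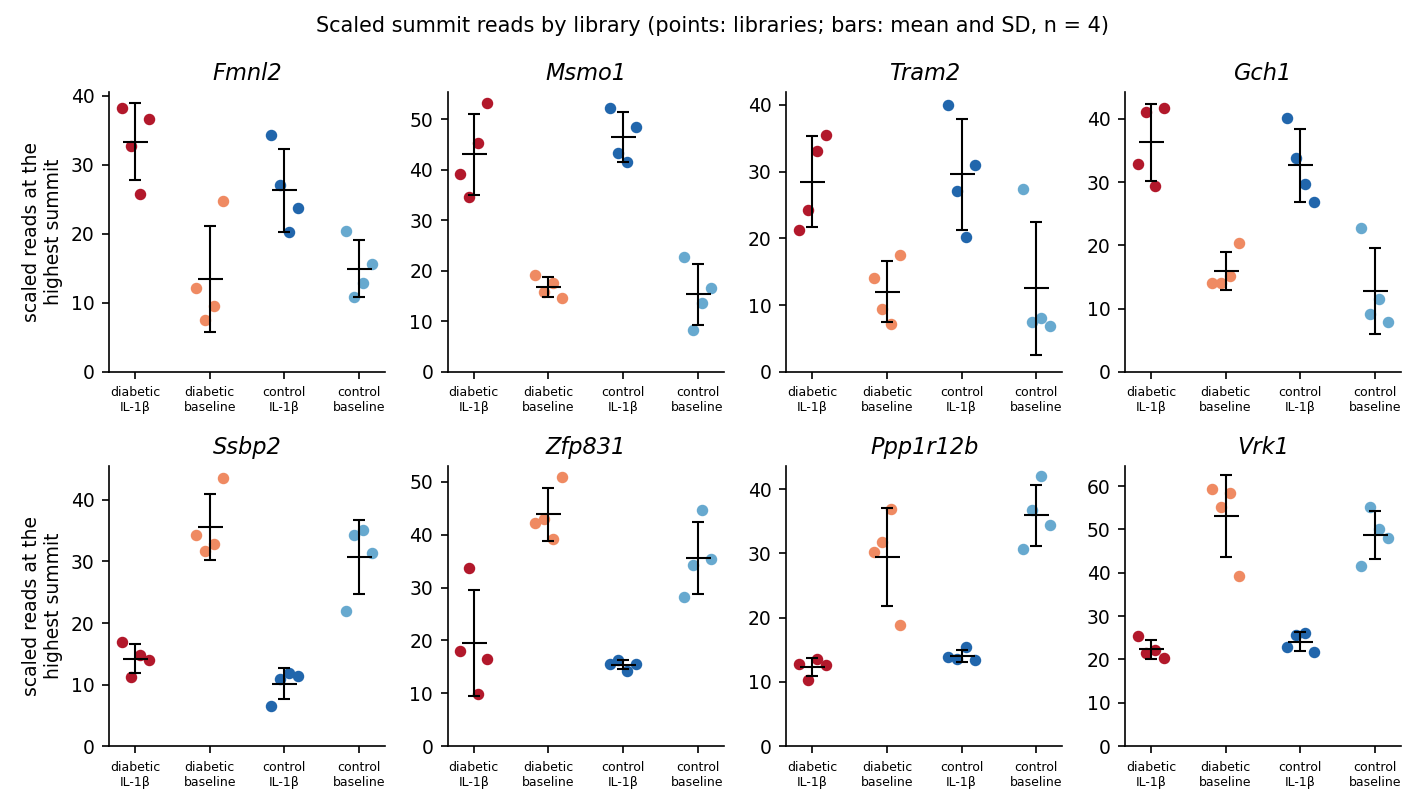
Scaled reads at the highest summit in every library for 4 regions that were higher after IL-1β (Fmnl2, Msmo1, Tram2, Gch1) and 4 that were lower (Ssbp2, Zfp831, Ppp1r12b, Vrk1), with mean and SD over 4 libraries a group. In Tram2, control baseline replicate 1 (27.5) lies apart from the other control baseline libraries.

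Most called regions changed in the same direction in both phenotypes. Of the 270 regions that rose in diabetic mice, 269 had a positive change in control mice, with medians of 0.78 in diabetic and 0.61 in control mice, and of the 199 that rose in control mice, 198 had a positive change in diabetic mice, with medians of 0.67 in diabetic and 0.81 in control mice. In each case the larger median was that of the phenotype whose calls chose the regions, which such a choice favours. The rises shared 121 regions, 44.8% of those in diabetic mice and 60.8% of those in control mice. The falls shared 40, which were 50.6% and 35.4%. Overlaps and shared directions were not counted over all 24955 regions. All 79 falls of diabetic mice were negative in control mice and 112 of 113 falls of control mice in diabetic mice. Tested over both phenotypes together, 738 regions were higher and 356 lower, 8.99% and 4.34%, against 6.42% and 3.40% of all 24955 regions (9.82% in either direction). With the mouse sample as a block these were 1047 and 545, and without diabetic baseline replicate 4 they were 969 and 657. Of the 738 rises, 395 had passed in neither phenotype alone, and of the 356 falls, 206. Background scaling gave 94 and 889, a share of rises of 9.56% instead of 67.5%.

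**Figure D4:**
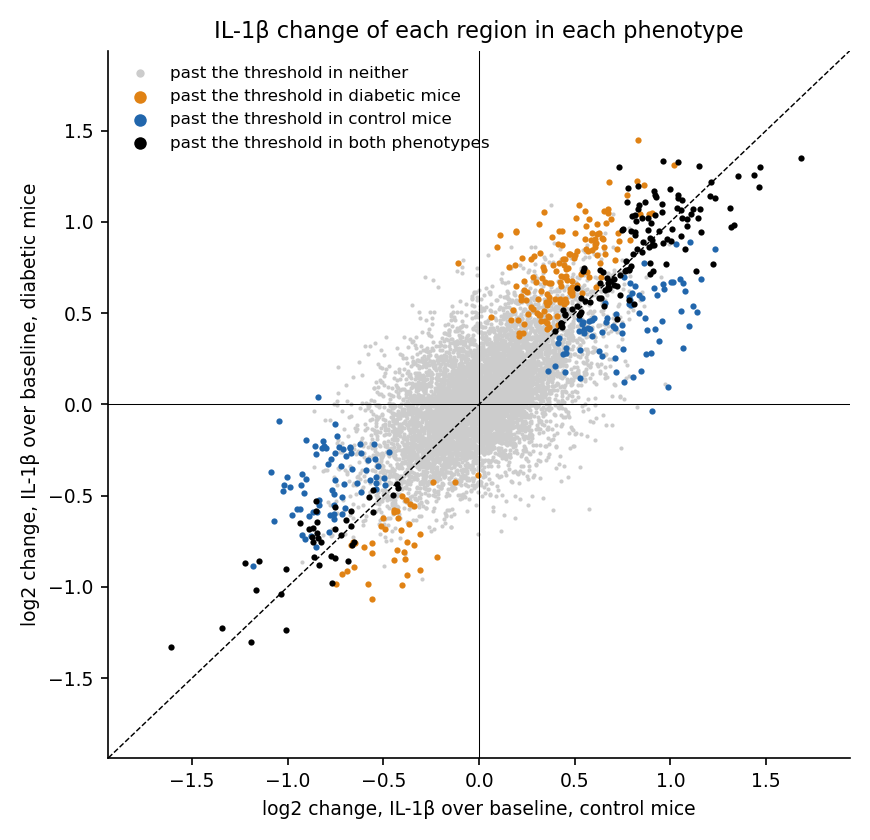
Log2 change after IL-1β of each of the 8207 regions in diabetic mice (vertical axis) and in control mice (horizontal axis), coloured by the phenotype in which limma's adjusted p was below 0.05. The dashed line marks equal changes; the regions past the threshold in both phenotypes, 121 rises and 40 falls, lie in the upper right and lower left corners.

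Some regions passed in 1 phenotype alone, and none of these differences passed the test of the difference itself. Fmnl2 in control mice had 34.4, 27.1, 20.2 and 23.8 scaled reads in IL-1β replicates, against 20.4, 10.9, 12.9 and 15.7 in baseline replicates, a change of 0.83 (SE 0.28, adjusted p = 0.134) that missed the threshold. Fry had -1.06 in diabetic mice and -0.56 in control mice (adjusted p = 0.16 in limma), and Mbd2 -0.99 and -0.40 (adjusted p = 0.359). Capn13 passed in control mice, with -0.37 in diabetic mice (adjusted p = 0.471) and -1.09 in control mice. Metap1d missed it narrowly in diabetic mice with -0.89 (adjusted p = 0.051).

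Several changed regions stood in the same gene. Regions called over both phenotypes lay in 896 genes, and 151 genes held at least 2. In 91 of these all were higher, in 35 all lower, and 25 held both directions. At least 3 rose in 28 genes and at least 3 fell in 8 genes. Of the 299 genes with at least 5 regions, 104 held none that changed, among them Iqsec1, Itpr2 and Runx1 of the 15 genes with the most. Over all 8207 intragenic regions 13.3% were called in either direction. How many such genes that share alone would leave without a call was not worked out. The 11 regions of Runx1 had changes over both phenotypes of -0.07 to 0.32.

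Irak2, a kinase of the IL-1 receptor complex, held 9 regions, of which 2 rose in diabetic and 2 in control mice. The region at chr6:113654780-113655371 rose in both. It had 42.4, 33.6, 57.7 and 38 scaled reads in diabetic IL-1β replicates, against 22.1, 25.2, 24 and 27.6 in diabetic baseline replicates. In control mice it had 41.7, 59.6, 47.6 and 43.4 in IL-1β replicates, against 18.8, 20.1, 20.3 and 22.6 in baseline replicates. Groups did not overlap in either phenotype, with changes of 0.77 (SE 0.17, adjusted p = 0.0146) and 1.22 (SE 0.17, adjusted p = 0.00036). Its neighbour at chr6:113661066-113661928 rose in diabetic mice (0.77, adjusted p = 0.0295) and had 0.42 in control mice (adjusted p = 0.3). The region at chr6:113690550-113691370 had 0.18 in diabetic mice (adjusted p = 0.806) and rose in control mice (0.84, adjusted p = 0.0274). There, diabetic baseline replicate 4, the library that stood apart, had 50.9 scaled reads, above all 4 diabetic IL-1β libraries. The remaining 6 had changes of 0.16 to 0.77 in diabetic and 0.01 to 0.49 in control mice.

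Plec, which encodes plectin, a linker of intermediate filaments to actin and adhesion sites, held 5 regions, and the same 3 of them rose in each phenotype. The strongest rise (chr15:76203962-76204585) had 79.6, 68.2, 95.7 and 97.5 scaled reads in diabetic IL-1β replicates, against 36.2, 43.9, 44.1 and 24.7 in diabetic baseline replicates. In control mice it had 81, 103, 89.2 and 100.2 in IL-1β replicates, against 44.8, 29.2, 49.4 and 40.2 in baseline replicates. Every IL-1β library stood above every baseline library, with changes of 1.22 and 1.21. At chr15:76198647-76199088 the changes were 1.03 and 0.80, and at chr15:76189876-76190556 0.73 and 1.14, in diabetic and control mice. The other Plec regions had 0.42 to 0.44 in both phenotypes and passed in neither alone. All 3 regions of Capg rose in each phenotype, by 0.78, 1.25 and 0.89 in diabetic and 0.77, 1.35 and 0.86 in control mice from the lowest to the highest coordinate. The middle one (chr6:72548960-72549582) had 71.1, 46.7, 69.9 and 51.9 in diabetic IL-1β replicates, against 28.2, 32.7, 25.6 and 16 in diabetic baseline replicates, with groups apart. In control mice it no longer passed when reads of all its summits were summed (adjusted p = 0.178).

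Apbb1ip, an adaptor that brings Rap1 to talin and so to integrins, held 7 regions, of which 2 rose in diabetic and 3 in control mice. The risen pair common to both lay side by side, at chr2:22810868-22811298 and chr2:22811440-22811827. The first had 94.4, 78.5, 78.5 and 83.6 scaled reads in diabetic IL-1β replicates, against 62.4, 48.6, 54.5 and 45.1 in diabetic baseline replicates, and 84.2, 100.2, 92.8 and 89.9 in control IL-1β replicates, against 62.8, 56, 52.8 and 55.9 in control baseline replicates. Groups were apart in both phenotypes and the changes nearly equal, 0.68 (SE 0.11, adjusted p = 0.0013) and 0.69 (SE 0.11, adjusted p = 0.00091) in limma. Zmiz1 held 12 regions. The one at chr14:25640389-25641011 had 22.3, 29.9, 29.4 and 34.2 in diabetic IL-1β replicates, against 17.1, 11.2, 12.8 and 10.2 in diabetic baseline replicates, and 22.1, 27.1, 28.6 and 26.9 in control IL-1β replicates, against 18.8, 15, 13.5 and 13.7 in control baseline replicates. It rose by 1.19 and 0.78 with no overlap of groups, while the next region towards the gene start (chr14:25565737-25566071) had 0.12 and 0.10.

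Havcr2, which encodes the inhibitory receptor TIM-3, held 3 regions close together, all higher over both phenotypes. In diabetic mice they rose by 0.95, 0.94 and 0.83, and in control mice the changes were 0.94, 0.59 (adjusted p = 0.0841, not passing, in limma) and 0.85. Akna, an AT-hook centrosomal protein, held 5, of which 3 rose in diabetic and 2 in control mice. Alox5ap, the partner of 5-lipoxygenase in leukotriene synthesis, held 3, of which 2 rose in diabetic mice (0.46 and 0.51) and none passed in control mice (0.20 to 0.42). Cdk6, the cyclin D kinase of cell cycle entry, held 10: over both phenotypes 4 rose and 1 fell, but 0 passed in diabetic mice and 1 in control mice (chr5:3494350-3494860, 0.52). Under background scaling 1 of Irak2's regions, 2 of Apbb1ip's, 3 of Plec's, 2 of Capg's, 1 of Zmiz1's, 1 of Havcr2's and 0 of Akna's, Alox5ap's and Cdk6's were higher. The other genes with at least 3 rises over both phenotypes were Lipc, Fgd3, Fnip2, Fyb, Gfod1, Gm46963, Gsap, Gsdme, Gse1, Itpr1, Lhpp, Ostf1, Plekha2, Rab31, Rasa3, Slc43a2, Vps13d, Wipf1 and Xylt1, of which Fnip2 held 3 that rose in control mice and Slc43a2 and Xylt1 3 each that rose in diabetic mice. Xylt1 also held 1 fall in each phenotype and over both, where the changes of its 10 regions ran from -0.69 to 0.54.

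Mef2c, a MADS-box transcription factor of lymphoid and myeloid progenitors, held 6 regions, all with negative changes over both phenotypes, -0.70 to -0.08, and 3 passed. The region at chr13:83523686-83524971 had 28.6, 30.8, 40.5 and 39.3 scaled reads in diabetic IL-1β replicates, against 53.4, 47.7, 56.1 and 79.96 in diabetic baseline replicates. It had 31.1, 24.4, 35.7 and 31 in control IL-1β replicates, against 47.1, 48.4, 50.8 and 44.2 in control baseline replicates. No library after IL-1β reached a baseline library of its phenotype, with changes of -0.76 (SE 0.16, adjusted p = 0.0108) and -0.65 (SE 0.16, adjusted p = 0.0277) in limma. The region at chr13:83633119-83633578 fell in control mice (-0.70, adjusted p = 0.0469) and had -0.44 in diabetic mice (adjusted p = 0.293).

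Slc7a11, the cystine-glutamate exchanger, held 5 regions, all with negative changes. At chr3:50436272-50436809 it had 31.8, 20.6, 29.4 and 17.7 scaled reads in diabetic IL-1β replicates, against 53.4, 36.5, 38.5 and 49.4 in diabetic baseline replicates, and 24.5, 28.4, 26.2 and 22.7 in control IL-1β replicates, against 44.8, 45.9, 37.2 and 36.3 in control baseline replicates. The groups did not overlap, and the region fell by 0.86 in diabetic and 0.69 in control mice on the log2 scale (adjusted p = 0.0118 and 0.0484 in limma). App, the amyloid precursor protein, held 11, of which 3 fell over both phenotypes. The region at chr16:85124531-85125073 passed in diabetic mice (-0.91) and that at chr16:85132010-85132661 in control mice (-0.75). All 3 regions of Ctnnbl1, a splicing factor, fell in control mice (-0.57, -0.86 and -0.57) and 1 in diabetic mice (-0.51). At least 3 fell over both phenotypes also in Antxr2, Atrnl1, Dgkh and Pde1a. Of the 18 regions of Pde4d only 1 passed in a single phenotype, at chr13:109239156-109239653, with -0.61 in diabetic (adjusted p = 0.0863) and -0.78 in control mice (adjusted p = 0.0227). None of the 15 regions of Foxp1 passed in a single phenotype, with changes of -0.37 to 0.60 in diabetic and -0.54 to 0.45 in control mice. Under background scaling 5 regions of Mef2c, 5 of Slc7a11, 6 of App and 5 of Pde4d were lower.

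**Figure D5:**
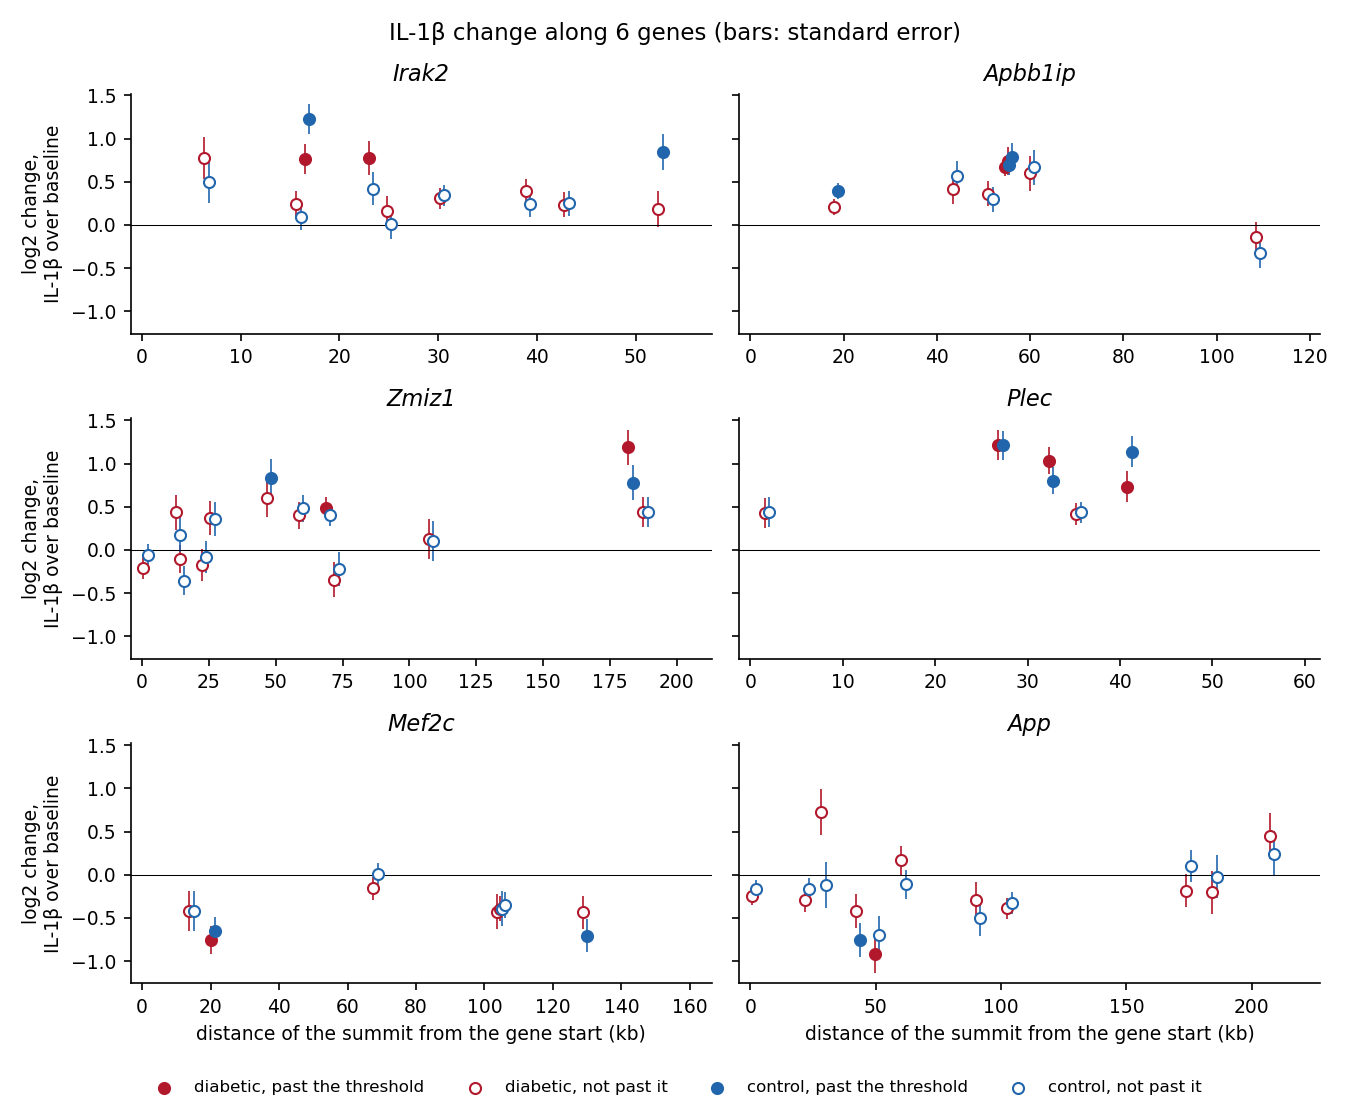
Log2 change after IL-1β with its standard error in diabetic and control mice for each ubiquitous intragenic region of 6 genes, against the distance of its summit from the gene start in kb; filled points passed the threshold, and the points of both phenotypes are shifted slightly sideways. In Plec the same 3 regions are filled in both phenotypes, and in Mef2c the filled points lie below 0.

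Of 31 growth factor and cytokine receptor genes, 14 held 31 regions, of which 3 were higher and 1 lower over both phenotypes (6.42% and 3.40% over all 24955 regions), with a median change of 0.04. Background scaling gave 1 higher and 3 lower, with a median of -0.23. Ifnar2, a chain of the type I interferon receptor (chr16:91398021-91398933), had 66.8, 59.8, 62.6 and 58.2 scaled reads in diabetic IL-1β replicates, against 48.3, 30.8, 28 and 24.7 in diabetic baseline replicates. In control mice it had 63, 67.7, 58.3 and 54.8, against 48.7, 28.4, 42 and 29.4, and groups were apart in both, with rises of 0.95 and 0.75. Tnfrsf1a, the main TNF receptor (chr6:125351282-125351759), had 27.8, 27.1, 46.4 and 33.1 in control IL-1β replicates, against 59.7, 62.6, 60.9 and 59.9 in control baseline replicates, and fell by 0.89 on the log2 scale (adjusted p = 0.0156 in limma). In diabetic mice its change was -0.61 (adjusted p = 0.116), with replicate 1 the highest library both after IL-1β and at baseline. Il17ra, the IL-17 receptor, rose in diabetic mice (0.58).

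Of 36 regions in genes of IL-1 receptor and NF-kB signalling, 13 were higher and 2 lower over both phenotypes, against 6.42% and 3.40% of all 24955 regions. The median change was 0.18, against 0.03 over all regions. Background scaling gave 2 higher and 2 lower, with a median of -0.09. In diabetic mice 5 rose and 1 fell, and in control mice 3 rose. Of the 13, 6 were in Irak2. Tnip1, which binds the deubiquitinase A20 and dampens NF-kB (chr11:54935980-54936787), had 62.6, 57, 60.1 and 63.3 scaled reads in diabetic IL-1β replicates, against 34.2, 35.5, 36.9 and 16 in diabetic baseline replicates, a rise of 1.06 (SE 0.19, adjusted p = 0.0025) in limma. Baseline replicate 4 was the lowest by far, and in control mice the change was 0.55 (SE 0.19, adjusted p = 0.13). Zc3h12a, an RNase that degrades inflammatory mRNAs, rose in both phenotypes (0.58 and 0.64), and Nfkb2, the p100 subunit, in diabetic mice (0.37). Irak3, the inhibitory member of the kinase family (chr10:120193248-120193687), fell in diabetic mice. It had 34, 26.2, 29.4 and 25.3 in diabetic IL-1β replicates, against 51.3, 49.5, 44.9 and 39.3 in diabetic baseline replicates, with groups apart and a change of -0.69 (SE 0.16, adjusted p = 0.0194). In control mice it had 31.1, 32.5, 28.6 and 31 in IL-1β replicates, against 30.6, 38.4, 46.7 and 50.05 in baseline replicates, where baseline replicate 1 lay within the IL-1β range and the change was -0.41 (SE 0.16, adjusted p = 0.213).

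AP-1 and MAP kinase genes held 37 regions, 7 higher and 6 lower over both phenotypes (6.42% and 3.40% over all regions), with a median change of 0.14. The median was 0.03 without diabetic baseline replicate 4, with 8 higher and 7 lower. Background scaling gave 0 higher and 7 lower, with a median of -0.13. Dusp16, a phosphatase of JNK and p38 (chr6:134802559-134803110), had 26.5, 28, 33.1 and 21.5 scaled reads in diabetic IL-1β replicates, against 47.3, 40.2, 46.5 and 43.6 in diabetic baseline replicates, and 29.4, 28.4, 25 and 29.96 in control IL-1β replicates, against 44, 52.6, 37.9 and 53 in control baseline replicates. No IL-1β library reached its baseline group, and the change was -0.72 in each phenotype (adjusted p = 0.0118 and 0.0113 in limma). Bach2, a bZIP repressor, rose in control mice (0.96) and had 0.66 in diabetic mice (adjusted p = 0.0515). The p38 activator Map2k3 (0.45) and the stress kinase Map3k5 (0.67) rose in diabetic mice.

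Adhesion and actin genes held 120 regions, of which 33 were higher and 6 lower over both phenotypes (6.42% and 3.40% over all regions), with a median change of 0.12. In diabetic mice 14 rose and 2 fell, and in control mice 13 rose and 3 fell. Besides Capg, Plec and Apbb1ip, which made up 14 of the 33, Ptk2b (chr14:66257593-66258097) had 45.6, 39.3, 38 and 39.3 scaled reads in diabetic IL-1β replicates, against 26.2, 19.6, 22.4 and 18.9 in diabetic baseline replicates. In control mice it had 42.5, 24.4, 33.3 and 37.2, against 22, 14.2, 19.6 and 13.7, and IL-1β libraries stood above baseline in both, with rises of 0.90 and 0.98. Selplg, the ligand of selectins (0.74 and 0.78), and the formin Fmnl1 (0.51 and 0.53) rose in diabetic and control mice, and the integrin chain Itgb2 in diabetic mice (0.63). Rhoh, a GTPase of blood cells (-0.73 and -0.87), and the fibronectin receptor chain Itga5 (-0.70 and -0.85) fell in both, and Cd44, a hyaluronan receptor, fell in control mice (-0.54). With background scaling 8 of the 120 were higher and 10 lower, with a median change of -0.15. The summed reads of all ubiquitous regions at the 45 listed adhesion genes were 7613 to 8210 in diabetic IL-1β libraries, against 5853 (replicate 4) to 7880 in diabetic baseline libraries, and 7906 to 8929 in control IL-1β libraries, against 7238 to 7546 in control baseline libraries. At mature neutrophil marker genes they were 1166 to 1512 in diabetic IL-1β and 928 to 1646 in diabetic baseline libraries, and 1461 to 1620 in control IL-1β and 1426 to 1610 in control baseline libraries, and their part in the adhesion result was not tested.

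Haematopoietic transcription factor genes held 122 regions, 3 higher and 8 lower over both phenotypes (6.42% and 3.40% over all regions), with a median change of -0.01. Background scaling gave 0 higher and 20 lower, with a median of -0.28, and without diabetic baseline replicate 4 there were 7 and 16. Nfe2, a bZIP factor of erythroid and megakaryocyte cells, rose in diabetic (0.64) and control mice (0.51) at chr15:103255130-103255545. Runx2, a Runt factor best known from bone (chr17:44702286-44703276), had 31.8, 29, 27 and 27.9 scaled reads in diabetic IL-1β replicates, against 20.1, 15.9, 12.8 and 16 in diabetic baseline replicates, and rose by 0.85 in diabetic and 0.82 in control mice. Its diabetic groups did not overlap. Besides Mef2c, Nfia (-0.64) and the fetal globin repressor Bcl11a (-0.66) fell in control mice, with -0.43 and -0.35 in diabetic mice that did not pass. With the mouse sample as a block, 12 were higher and 10 lower. The 79 regions of chromatin regulator genes gave 2 rises and 3 falls over both phenotypes, with a median change of 0.01 (0 and 7 under background scaling, and 6 and 6 without diabetic baseline replicate 4), and 2 in the deacetylase gene Hdac4 fell in control mice (-0.83 and -0.85).

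Glucocorticoid response and clock genes held 26 regions, 5 higher and 2 lower over both phenotypes (6.42% and 3.40% over all regions), with a median change of 0.15. Background scaling gave 2 higher and 4 lower, with a median of -0.12, and without diabetic baseline replicate 4 there were 7 and 5. Sgk1, a kinase induced by glucocorticoids and serum (chr10:21907784-21908464), had 39.3, 29.9, 30.7 and 31.7 scaled reads in diabetic IL-1β replicates, against 18.1, 14, 15.2 and 17.4 in diabetic baseline replicates. It had 27.8, 54.1, 40.4 and 27.9 in control IL-1β replicates, against 18.8, 20.1, 20.3 and 11.8 in control baseline replicates, groups apart in both phenotypes, with rises of 1.02 and 1.06. The period gene Per3 rose too (1.01 and 1.09). Glucose uptake, glycolysis and insulin signalling genes held 54, 3 higher and 2 lower over both phenotypes (11 and 3 with the mouse sample as a block, 8 and 4 without diabetic baseline replicate 4, and 1 and 3 under background scaling), with a median change of 0.03. Pfkfb3, which makes the activator of phosphofructokinase, held 10 regions, of which only that at chr2:11530040-11530588 passed. It had 27.6, 30.8, 44.2 and 36.7 in diabetic IL-1β replicates, against 20.1, 19.6, 13.6 and 14.5 in diabetic baseline replicates, and 41.7, 44.7, 33.3 and 34.1 in control IL-1β replicates, against 24.3, 15.9, 26.4 and 21.6 in control baseline replicates. Groups did not overlap, with rises of 1.04 and 0.82. Slc2a1, the basal glucose transporter, rose in diabetic mice (0.85) and had 0.56 in control mice (adjusted p = 0.0718), and Pfkp, a phosphofructokinase, fell in diabetic mice (-0.50).

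Cell type marker genes held few intragenic regions. Their calls stand beside 6.42% higher and 3.40% lower over all 24955 regions for both phenotypes together. Under background scaling none of these lists held a higher region over both phenotypes, and several held lower ones. Stem cell markers held 14, with a median change of -0.16 over both phenotypes and 1 fall, in Gcnt2 in diabetic mice (-0.82). Mature neutrophil markers held 11, of which 2 were higher and 1 lower over both phenotypes. The list's median change was -0.23 over both phenotypes, -0.01 in diabetic and -0.24 in control mice. Without diabetic baseline replicate 4 there were 2 higher and 4 lower. The matrix metalloproteinase gene Mmp9 rose in diabetic mice (0.84), unlike the list's median. It had 48.8, 36.5, 36.8 and 34.2 scaled reads in diabetic IL-1β replicates, against 41.3, 15.9, 20.8 and 16 in diabetic baseline replicates, of which replicate 1 stood within the IL-1β range. Granulocyte-monocyte progenitor markers held 7, with a median change of 0.25 over both phenotypes and 2 rises, both in the Fc receptor gene Fcgr3. Monocyte markers held 9, B cell markers 3 and T and NK cell markers 3, with no call. Over both phenotypes, erythroid markers held 12 with 1 rise (Sptb, adjusted p = 0.0443 in limma, not called under 14 alternatives, among them cyclic loess, background scaling and summed summits), megakaryocyte markers 15 with 2 rises (both in Nfe2), mast cell markers 11 with 1 rise (Alox5) and 1 fall (Hdc), dendritic cell markers 11 with 1 rise (Zbtb46), stroma markers 13 with 1 rise (Runx2) and cytosolic ribosomal protein genes 1 with none.

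Over both phenotypes 8.99% of the intragenic regions were higher and 4.34% lower, against 2.77% and 1.46% of gene-end regions and 8.67% and 5.10% of intergenic regions. In diabetic mice 59 gene-end regions and 217 intergenic ones were higher, and in control mice 49 and 196. Within the intragenic set, 5.79% of regions overlapping an internal start window of their gene were higher and 2.00% lower. Of those overlapping no start window, 9.42% were higher and 4.70% lower. No test was made of any of these differences in share. With the regions ranked by strength into 4 classes of equal size, the strongest gave 139 rises and 102 falls and the weakest 238 and 62. Strength and change come from the same summits, and a weak region that lost its call in any library is not in the set. How far the rule made this split was not tested. By position, the part of the gene nearest its start gave 171 rises and 91 falls among 1961 regions (8.72% and 4.64%). The part nearest its end gave 111 and 56 among 1265 regions, nearly the same shares (8.78% and 4.43%). Of the 10 regions with a miRNA hairpin, those of Mir7687 in Gse1 (0.66 over both phenotypes, adjusted p = 0.000217 in limma) and Mir3092 in Fndc3b (0.43, adjusted p = 0.0101) rose.

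No intragenic region differed between diabetic and control mice past the threshold, in either portion, and none of all 24955 did (0%). At baseline 1046 of the 8207 had an unadjusted p below 0.05 in limma, 425 higher and 621 lower in diabetic mice, and the smallest adjusted p was 0.4225. After IL-1β the number was 407, with 0.970 as the smallest adjusted p. The lowest p at baseline was that of Bcat1, a branched-chain aminotransferase (chr6:145002146-145002879). It had 36.2, 32.7, 45.7 and 26.2 scaled reads in diabetic baseline replicates, against 47.9, 61.8, 54.8 and 57.9 in control baseline replicates. The groups did not overlap, and the difference was -0.68 (SE 0.16, adjusted p = 0.4225). Cblb, a ubiquitin ligase that restrains lymphocytes (chr16:52129430-52129946), had 24.2, 24.3, 17.6 and 27.6 in diabetic baseline replicates, against 11.8, 10.9, 14.2 and 13.7 in control baseline replicates, a difference of 0.88 (SE 0.21, adjusted p = 0.4225). Rapgef4, a cAMP-activated Rap exchange factor, differed by -0.59 (SE 0.15, adjusted p = 0.4225). All 4 diabetic libraries of Cblb stood above the control ones and those of Rapgef4 below them. Bcat1, Cblb and Rapgef4 were picked for the lowest p, so groups that stand apart follow from that choice.

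After IL-1β the lowest p was that of Susd4, a regulator of complement (chr1:182792440-182793233). It had 26.5, 14.9, 23.3 and 26.6 scaled reads in diabetic IL-1β replicates, against 39.3, 47.4, 38.1 and 32 in control IL-1β replicates, a difference of -0.80 (SE 0.20, adjusted p = 0.97) that did not pass. Lca5, a ciliary protein, differed by 0.64 and Fndc11 by 0.62, with the same adjusted p. For the difference of the IL-1β changes between phenotypes, 0 of 8207 regions passed and 158 had an unadjusted p below 0.05, 102 with the higher change in diabetic mice. The lowest p was that of Gm17359, with changes of 0.32 in diabetic and -0.60 in control mice and a difference of 0.92 (SE 0.28, adjusted p = 0.9998). Ralgps1, a Ral exchange factor, had 0.77 and -0.11, and Rilpl1, a Rab effector, -0.09 and -1.05. A p that missed the threshold does not show that phenotypes act alike: for Gm17359 the standard error alone was 0.28 on the log2 scale.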

How the data were processed

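The deposited files are 1 MACS2 narrowPeak list per library in mm10, called by the authors per library and not on pooled samples. Column 5 is an integer score made from the deposited q-value, which was not used further. Column 7 is the fold enrichment over local background at the summit, as deposited by the authors, a ratio of read counts that each have 1 added. Columns 8 and 9 are deposited −log10 p and −log10 q values. The submitters' processing notes name MACS2 2.1.1, Bowtie2 2.2.6, DiffBind 2.4.8, FastQC 0.11.3 and Trim Galore 1.8, with no roles. The sources used here do not say whether reads were shifted for the Tn5 cut or cleared of duplicates, and reads without molecular identifiers are not independent molecules.

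From the fold and the −log10 p, both deposited, the whole number of reads at each summit and its background were solved (99.9987% to 100% of summits per library, tolerance 0.001 on −log10 p). The highest summit of each region gave its reads, scaled to equal medians over the 24955 ubiquitous regions. No low-value filter and no pseudocount were used. limma 3.58.1 (R 4.3.3, trended variances) fitted 4 group means to log2 reads of all 16 libraries, with Benjamini-Hochberg adjustment over 24955 regions and a threshold of 0.05. The 6 comparisons were IL-1β against baseline in diabetic mice, in control mice and over both, diabetic against control at baseline and after IL-1β, and the difference of the IL-1β changes. The fit was tested on simulated data. Region merging, gene assignment and tables used Python 3.11.15, numpy 2.4.6, pandas 2.3.3 and scipy 1.17.1. Gene ends are those of RefSeq protein-coding genes. No genome sequence was used, so motif searches covered RefSeq start windows only.

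Replicate numbers pair libraries within a phenotype because, per the series' design text, each mouse sample was divided. Deviations of paired libraries correlated at 0.40, 0.19, -0.04 and 0.33 in diabetic samples 1 to 4 and at 0.42, 0.36, 0.01 and 0.07 in control samples 1 to 4, across all ubiquitous regions.

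Named are the 15 genes with most regions, the 8 largest rises and 8 largest falls past the threshold per phenotype and over both (1 per gene), the 5 strongest regions, up to 3 called regions per gene list, the 3 lowest p-values of each comparison without calls, and genes with at least 3 regions changed in 1 direction. Other regions in these genes and lists, and the printed sequences, were chosen after their values were seen. The regions and the 20 gene lists were chosen with earlier results of these data known. Alternatives tried were background scaling, cyclic loess, summing all summits, a set called in at least 12 libraries, at least 20 reads, only the libraries of a comparison, robust variances, the mouse sample as a block, stricter peaks, other distances to gene ends, and leaving out each library.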

Additional observations from a re-analysis of the deposited data

Results flagged for a closer look

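Within groups of 4 libraries, the highest or lowest library of a region was compared with the others by Dixon's ratio of gap to range. Chance gives such a gap in about 1 of 20 groups, and 14 of 180 groups tested in 41 named regions and in library measures showed it. Among regions that passed the IL-1β test, Tram2 had 27.48 scaled reads in control baseline replicate 1, with 6.87 to 8.12 in the others of its group. Slc11a1 had 21.14 in diabetic baseline replicate 1 (others 13.08 to 13.62), and Fry had 40.26 in the same library (others 34.45 to 34.89). Mefv had 40.48 in diabetic IL-1β replicate 3 (others 29.12 to 30.84), and Ripor2 67.71 in control baseline replicate 4 (others 56.85 to 57.63).

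Diabetic replicate 4 held several of the others. In its baseline library Snapc3 had 158.47 (others 97.63 to 104.15), Pik3c3 117.77 (others 70.1 to 77.71) and Lca5 91.6 (others 53.35 to 58.48). After IL-1β Pik3c3 had 88.64 in it (others 72.9 to 75.33), Lca5 73.44 (others 53.98 to 55.14) and Gm17359 29.12 (others 20.16 to 20.85). Gm17359 also stood low, at 14.95, in diabetic baseline replicate 2 (others 18.9 to 19.23). Susd4 had 41.96 in control baseline replicate 3 (others 29.23 to 31.4), and Rilpl1 14.72 in control IL-1β replicate 1 (others 19.63 to 20.3).

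At Gm17359 reads were higher after IL-1β in 4 of 4 diabetic mouse samples and in 0 of 4 control mouse samples. The region was picked for the lowest p of this comparison, so such a split follows from the choice. The difference between the changes was 0.9156 on the log2 scale, and limma's test of that difference did not pass (adjusted p = 0.9998 over 24955 regions).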

How the results depend on the processing

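The direction of the named results held in nearly all alternatives, which is favoured because they were picked by their values in the main fit. Medians of gene lists were less steady. Under background scaling that of IL-1 receptor and NF-kB signalling went from 0.18 to -0.09 and that of adhesion and actin genes from 0.12 to -0.15. Of 4696 values for 205 named results, 4275 kept their call or their lack of one, 419 lost a call and 2 reversed. Many of these values come from fits that left out 1 library. Under background scaling alone, 102 of the 205 results stayed and 101 lost their call. The 2 that reversed there were Itpr1 (-0.012) and Lipc (-0.018) over both phenotypes. Counts of calls moved more. Background scaling gave 6 rises and 43 falls in diabetic mice, 8 rises in control mice, and 94 rises and 889 falls over both phenotypes. Summing all summits gave 126 rises and 34 falls in diabetic mice and 105 and 66 in control mice. Fitting only the libraries of the comparison gave 86 and 14 in diabetic mice and 464 and 265 in control mice. With the mouse sample as a replicate block there were 509 rises and 155 falls in diabetic mice, 400 and 203 in control mice and 545 falls over both, and no named call was lost under the block. Leaving out 1 library gave 137 to 407 rises and 32 to 155 falls in diabetic mice, 98 to 447 and 42 to 236 in control mice, and 593 to 969 and 279 to 657 over both. Peaks with −log10 q of at least 5 left 5393 regions and 130 genes with at least 5. The comparisons of diabetic with control mice, and of their IL-1β changes, gave 0 calls whichever library was left out. The cause of these movements was not tested. With 20 to 47 reads at the typical summit per library, counting error limits small changes.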
